A study of Saccharomyces cerevisiae with 6 samples.

Results

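The genes described here encode the machinery that brings nuclear-encoded proteins into yeast mitochondria and folds them there. They comprise 39 genes, matched by standard name to the 6377 ORFs of the table, and all 39 had a value on each of the 6 arrays. They were divided into the TOM complex (8 genes), the SAM complex (4 genes), the TIM translocases with their intermembrane space chaperones and import motor (16 genes), the matrix chaperones (5 genes), the processing peptidases (4 genes) and the MIA pathway (2 genes). The messenger RNA of dox-treated cells was compared with that of untreated cells on two-color oligonucleotide arrays to ask which mRNA levels changed when Hsp90 was depleted. Both kinds of cells had the genotype TETp-HSC82 hsp82Δ arg4Δ lys5Δ car2Δ::URA3 in the R1158 background, so that the untreated cells also lacked HSP82 and carried the only remaining Hsp90 gene, HSC82, behind the dox-repressible promoter. Treated cells grew in 5 μg/ml dox for 11 h up to log phase, in media that contained light or heavy arginine and lysine. Of the 2 independently grown cultures, culture 1 had its light-labeled cells treated and culture 2 its heavy-labeled cells, and each culture gave 3 RNA isolations and hence 3 technical arrays. HSC82 was reduced on every array, with log2 ratios of −6.43, −6.36 and −5.96 in culture 1 and −5.48, −6.00 and −5.70 in culture 2. Each array held 6180 to 6353 values with a median between −0.03 and 0.02.

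Nearly all mitochondrial proteins are made in the cytosol and enter the organelle unfolded. The TOM complex is the common entry gate of the outer membrane, from which the SAM complex takes up β-barrel proteins, the TIM23 complex takes up proteins with a presequence, and the TIM22 complex takes up carrier proteins with the help of the small TIM chaperones. Mitochondrial Hsp70 pulls presequence proteins into the matrix, where peptidases remove the presequence and Hsp60 with Hsp10 completes folding. Cytosolic chaperones hand precursors to the TOM receptors, and Tom70 is the receptor known as their docking site, for Hsp70 in yeast and for both Hsp70 and Hsp90 in mammals.

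None of the 39 import and folding genes changed by the criterion used for mRNA. A gene was called changed when the mean log2 ratio of the 2 cultures was past 1.5-fold (0.58 on the log2 scale) with an unadjusted p below 0.05 in limma, and 0 of 39 genes met it, against 10.5% of the 6290 ORFs tested (5.74% higher and 4.74% lower). With Benjamini-Hochberg adjusted p-values the count was again 0 of 39, against 5.36% of all ORFs. The p threshold alone was passed by 7 of the 39 genes (17.9%), 2 higher and 5 lower, against 29.1% of all ORFs (14.0% higher and 15.2% lower). Since 0 of the 39 means were past 1.5-fold, adjusted p-values could not change the count. The same holds for fits that took the 6 arrays as replicates, with or without the culture as a random block. The means of the 39 genes ran from −0.57 for TIM12 to 0.36 for ERV1, with a standard deviation of 0.22 among genes where all ORFs had 0.43. For 31 of 39 genes (79.5%) the 95% interval of the mean lay wholly within 1.5-fold of no change, which was true of 59.8% of all ORFs. The intervals of the other 8 genes, ERV1, TIM13, TOM7, MIA40, TIM10, PAM18, TIM23 and TIM12, reached past 1.5-fold on one side, so that a change of that size was not excluded for them. Ratios on a two-color array are relative to the other mRNAs of the same cells, so a change in the total mRNA per cell, or a change confined to some of the cells, cannot be told apart from these values.

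**Figure D1:**
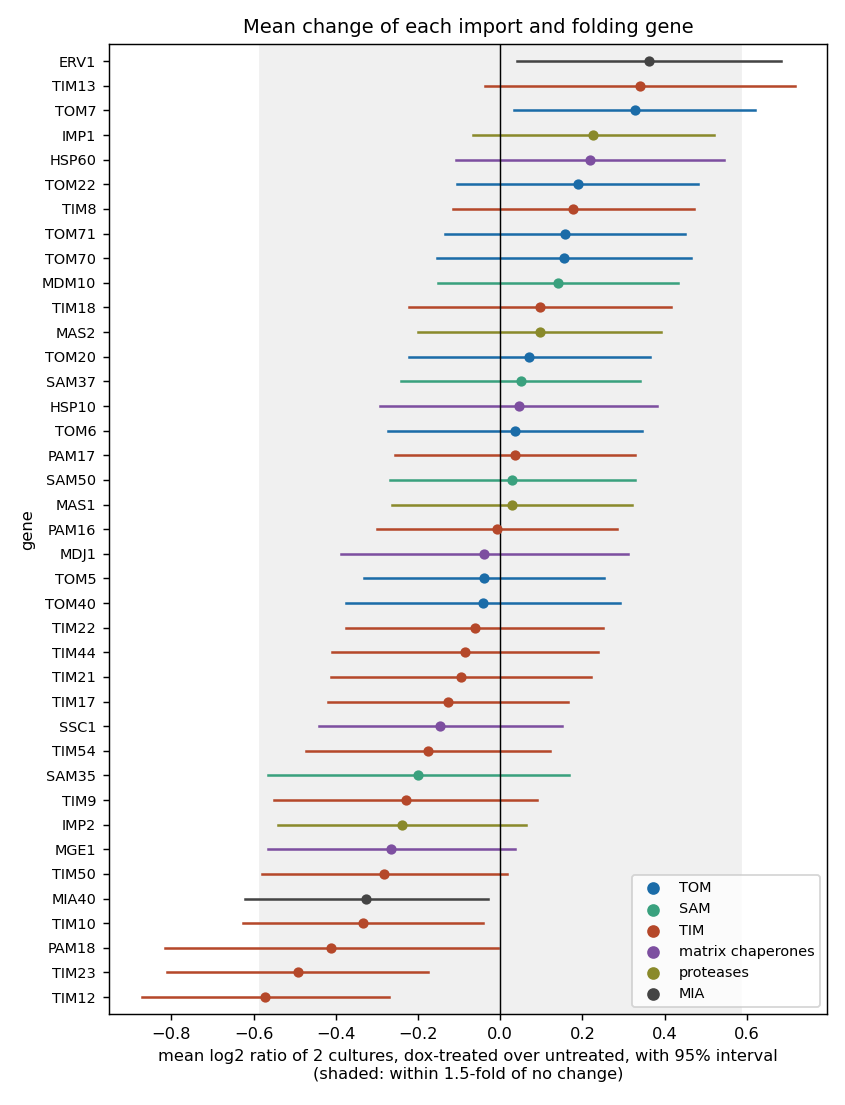
Mean log2 ratio of dox-treated over untreated cells for each of the 39 genes, sorted by mean and colored by group, with the 95% interval from limma (n = 2 cultures), and shading within 1.5-fold of no change. No mean lies outside the shading, TIM12 comes nearest to its edge at −0.57, and 31 intervals stay within it.

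Of the 8 genes of the TOM complex, 6 had means above zero, none of them past 1.5-fold. The gene of the central pore differed between the cultures by less than 1.5-fold. That difference passed the adjusted p threshold alone in limma, as it did for 22.3% of all ORFs. TOM7, which encodes a small subunit that governs how the complex assembles and comes apart, had log2 ratios of 0.23, 0.17 and 0.50 in culture 1 and 0.44, 0.18 and 0.44 in culture 2. It was thus higher on all arrays, and its mean of 0.33 (standard error 0.12, adjusted p = 0.143 in limma) corresponded to 1.25-fold. TOM22, which encodes the central receptor and organizer of the complex, was also higher on all arrays, from 0.11 to 0.34. The same held for TOM71, the paralog of TOM70, whose ratios lay between 0.10 and 0.24. TOM70 itself, which encodes the receptor for carrier precursors, was higher on 5 of 6 arrays, with culture means of 0.06 and 0.25. All of these receptor genes stayed below 1.5-fold on every array. TOM20, encoding the presequence receptor, had culture means of 0.04 and 0.10. The genes for the small subunits Tom5 and Tom6 had means of −0.04 and 0.04 and values on both sides of zero. TOM40, which encodes the channel, had log2 ratios of −0.19, −0.11 and −0.26 in culture 1 and 0.06, 0.18 and 0.08 in culture 2, so the arrays of the cultures did not overlap and had opposite signs. The cultures did not overlap for TOM70 either, and how often this held over all ORFs was not computed.

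In the SAM complex, which inserts β-barrel proteins such as Tom40 and porin into the outer membrane, 3 of 4 genes stayed near zero. SAM50, encoding the β-barrel core, had culture means of 0.09 and −0.03, and SAM37, encoding a peripheral subunit, had 0.04 and 0.06. MDM10, whose product acts both in the SAM complex and in the contact site between mitochondria and the endoplasmic reticulum, was higher on all 6 arrays, from 0.09 to 0.24. SAM35 encodes the subunit that recognizes the sorting signal of β-barrel precursors. Its log2 ratios were −0.43, −0.34 and −0.43 in culture 1 and −0.11, 0.03 and 0.08 in culture 2, so it was lower in culture 1 on every array and around zero in culture 2.

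Among the 5 small TIM chaperones, which escort hydrophobic precursors across the intermembrane space, TIM9, TIM10 and TIM12 were lower on every array and TIM8 and TIM13 were higher on every array. TIM12, encoding the small TIM that is bound to the TIM22 complex, had log2 ratios of −0.73, −0.72 and −0.47 in culture 1 and −0.57, −0.38 and −0.55 in culture 2. Its mean of −0.57 (standard error 0.12, 95% interval −0.87 to −0.27, adjusted p = 0.0587 in limma) was 1.49-fold lower, just short of 1.5-fold. TIM12 had the lowest mean of the 39 genes and stood at place 336 from the lowest of 6290 ORFs. Without array 3 of culture 1, or without array 2 of culture 2, its mean was −0.61 or −0.60 and it met the criterion as the only member. TIM10, which with TIM9 encodes the soluble hexameric chaperone of carrier precursors, ranged from −0.46 to −0.19 and averaged −0.33 (standard error 0.12, adjusted p = 0.136 in limma). For its partner TIM9 the range was −0.50 to −0.04 and the culture means were −0.35 and −0.11. TIM13, which with TIM8 encodes the other hexamer, had log2 ratios of 0.38, 0.47 and 0.82 in culture 1 and 0.17, 0.09 and 0.11 in culture 2. All were positive, but the cultures did not overlap, and the mean of 0.34 (standard error 0.15, adjusted p = 0.202 in limma) rested mostly on culture 1. TIM8 was between 0.07 and 0.34 on the 6 arrays. In the pair of hexamers, then, one had both of its genes below zero and the other both above zero on all arrays, though none of the 4 genes met the criterion. Of all ORFs with 6 values, 23.6% were higher and 23.4% were lower on all arrays, and the arrays of a culture are technical.

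The 3 genes for the membrane part of the TIM22 carrier translocase showed no common direction. TIM54, encoding its large intermembrane space domain subunit, was lower on all arrays, from −0.29 to −0.04. TIM22, the channel gene, had culture means of 0.04 and −0.17, and TIM18, encoding a further membrane subunit, had −0.02 and 0.21.

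All 4 genes of the TIM23 presequence translocase had means below zero, with the channel gene lowest. TIM23, which encodes the channel subunit, had log2 ratios of −0.48, −0.43 and −0.92 in culture 1 and −0.48, −0.28 and −0.38 in culture 2. It was lower on every array and averaged −0.49 (standard error 0.13, adjusted p = 0.0804 in limma), and array 3 of culture 1 lay well below the rest. TIM17, whose product pairs with Tim23 in the membrane, was lower on all arrays too but only by −0.22 to −0.06. TIM50, encoding the receptor that takes presequences over from the TOM complex, had culture means of −0.34 and −0.23 and was higher on 1 of 6 arrays. TIM21, encoding the subunit that contacts the TOM complex and the respiratory chain, had culture means of −0.20 and 0.01.

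In the import motor, which couples the TIM23 channel to mitochondrial Hsp70, PAM18 lay below its partners, mostly in culture 1. PAM18 encodes the J protein that stimulates the ATPase of mitochondrial Hsp70 at the channel. Its log2 ratios were −0.64, −0.75 and −0.62 in culture 1 and −0.12, −0.22 and −0.13 in culture 2. The gene was lower on all arrays, but culture 1 was past 1.5-fold and culture 2 was not, so that the average was only −0.41 (standard error 0.16, adjusted p = 0.168 in limma). PAM16, encoding the J-like protein that binds and restrains Pam18, had culture means of −0.03 and 0.01. TIM44, encoding the scaffold that recruits Hsp70 to the channel, had −0.21 and 0.04, and PAM17, encoding an organizer of the motor, had 0.02 and 0.06. On every array the ratio of PAM18 lay below that of PAM16, by 0.64 in culture 1 and 0.17 in culture 2 on the log2 scale.

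**Figure D2:**
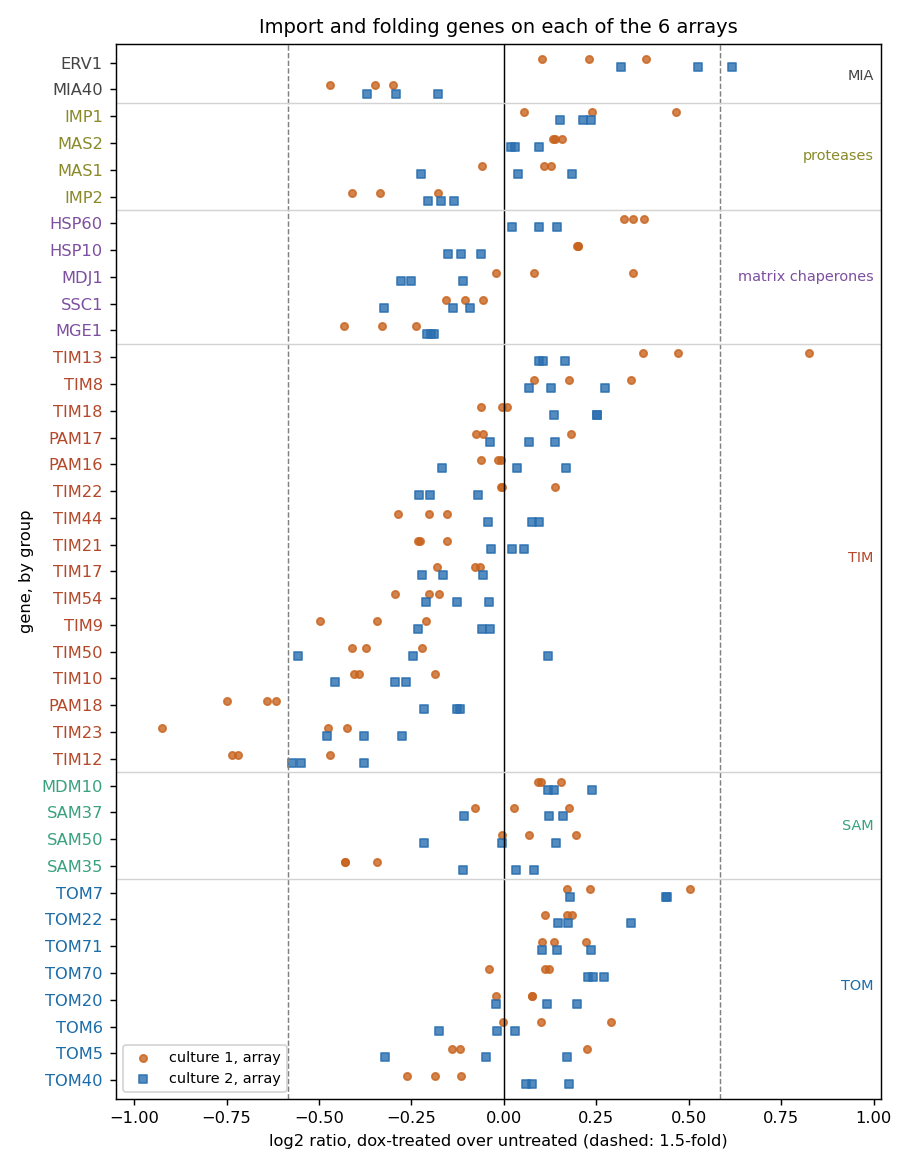
Log2 ratio of dox-treated over untreated cells on each of the 6 arrays for the 39 genes, ordered by group, with the 2 cultures marked separately. TIM12, TIM23, PAM18, TIM10 and MIA40 lie below zero on all arrays and ERV1, TIM13 and TOM7 above it, while SAM35, PAM18, TIM13, TOM40, HSP10 and HSP60, the genes that differed between the cultures by the adjusted p, are among those whose cultures do not overlap.

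The 5 genes of the matrix chaperones split into HSP60, HSP10 and MDJ1, which were higher in culture 1 than in culture 2 on every array, and SSC1 and MGE1, which were below zero on every array. HSP60, which encodes the chaperonin, had log2 ratios of 0.35, 0.38 and 0.33 in culture 1 and 0.02, 0.14 and 0.09 in culture 2. HSP10, encoding its lid, had 0.20 on all 3 arrays of culture 1 and −0.06, −0.12 and −0.15 in culture 2. The cultures did not overlap for either gene of the chaperonin, though the share of all ORFs without overlap was not computed. HSP60 exceeded HSP10 on all 6 arrays by 0.08 to 0.26. MDJ1, encoding the J protein that works with mitochondrial Hsp70 in folding, had culture means of 0.14 and −0.21. SSC1, the gene of mitochondrial Hsp70 itself, was lower on all arrays, from −0.33 to −0.06, with a mean of −0.15. MGE1, encoding the nucleotide exchange factor of this Hsp70, was lower on all arrays as well, with culture means of −0.33 and −0.20 and an average of −0.27 (standard error 0.12, adjusted p = 0.208 in limma). No chaperone gene of the matrix passed even the unadjusted p threshold, and all 5 intervals stayed within 1.5-fold of no change.

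Of the peptidases, the genes of the matrix enzyme lay close together and those of the inner membrane enzyme had opposite signs. MAS1 and MAS2 encode the subunits of the matrix processing peptidase, and their means were 0.03 and 0.10. IMP1 and IMP2 encode the catalytic subunits of the inner membrane peptidase, which trims proteins sorted to the intermembrane space. IMP1 was higher on all arrays, from 0.06 to 0.46, and IMP2 was lower on all arrays, from −0.41 to −0.13. IMP1 exceeded IMP2 by 0.56 in culture 1 and 0.37 in culture 2.

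The disulfide relay traps cysteine-rich proteins, the small TIMs among them, in the intermembrane space. MIA40 encodes its receptor and oxidase, and ERV1 encodes the sulfhydryl oxidase that reoxidizes Mia40. ERV1 had log2 ratios of 0.23, 0.10 and 0.38 in culture 1 and 0.62, 0.32 and 0.52 in culture 2. This gave it the highest mean of the 39 genes, 0.36 (standard error 0.13, adjusted p = 0.140 in limma), at place 807 from the highest of 6290 ORFs. MIA40 had log2 ratios of −0.35, −0.47 and −0.30 in culture 1 and −0.29, −0.18 and −0.37 in culture 2. It was lower throughout, and its mean was −0.33 (standard error 0.12, adjusted p = 0.146 in limma). ERV1 exceeded MIA40 on every array, by 0.49 to 0.91, which was the widest gap among the 13 pairs of partner genes compared. These pairs were chosen with the values known, so the gaps are given without a test.

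The groups were then set side by side within each culture. The TOM genes had a median of 0.10 in culture 1 and 0.13 in culture 2, and the TIM genes had −0.21 and −0.12, where all ORFs had −0.02 and 0.02. The TOM median exceeded the TIM median on 6 of 6 arrays, by 0.18 to 0.34. For the SAM genes the medians were 0.06 and 0.03, above the TIM median on 6 of 6 arrays by 0.06 to 0.33. The matrix chaperones had a median of 0.14 in culture 1 and −0.19 in culture 2, so that they lay 0.35 above the TIM genes in culture 1 and 0.07 below them in culture 2. Seen by gene, 7 of the 16 TIM genes were lower and 2 were higher on all 6 arrays, while 3 of the 8 TOM genes were higher and 0 were lower. Over all 39 genes, 10 were higher on every array (25.6%) and 11 were lower (28.2%), against 23.6% and 23.4% of the ORFs with 6 values. With 2 cultures the smallest two-sided p of an exact test is 0.5, so the differences between groups are given as measured. They were also smaller than the range within the TIM group, whose means ran from −0.57 to 0.34.

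**Figure D3:**
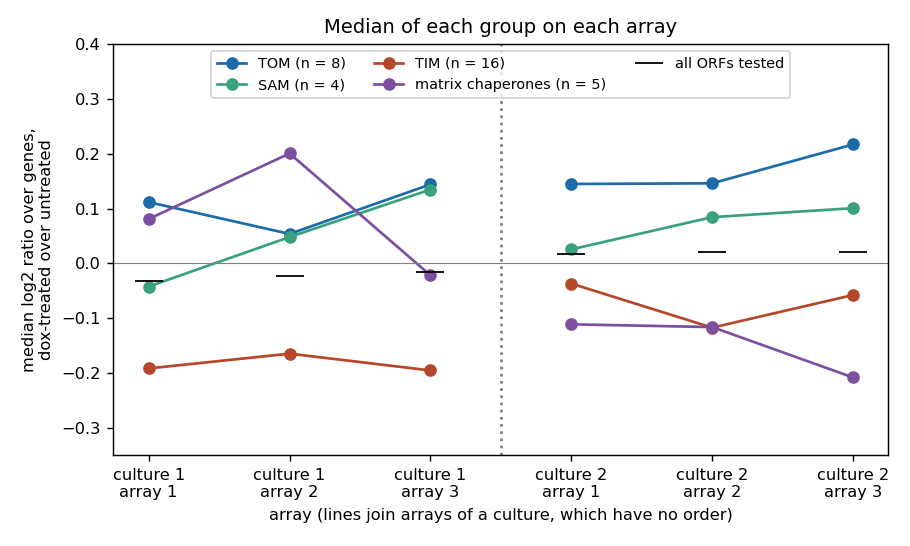
Median log2 ratio of dox-treated over untreated cells over the TOM, SAM, TIM and matrix chaperone genes on each of the 6 arrays, with bars for all ORFs tested; lines only join the arrays of a culture, which have no order. The TOM medians lie above the TIM medians on every array, and the matrix chaperone medians run from −0.02 to 0.20 in culture 1 and from −0.21 to −0.11 in culture 2.

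The cultures were also compared with each other. Of the 39 genes, 27 had the same sign in both cultures (69.2%, against 74.0% of all ORFs), and across the 39 genes the culture means had a Pearson r of 0.70, where genes are not independent replicates and all ORFs gave 0.67. In culture 1 the means of 3 genes, TIM12, TIM23 and PAM18, were past 1.5-fold, against 17.1% of all ORFs, and in culture 2 those of 0 genes were, against 8.35%. The TIM23 mean passed through array 3 at −0.92, with −0.48 and −0.43 on the other arrays of culture 1. When culture 2 was compared with culture 1 in limma over 3 technical arrays against 3, 0 of 39 genes differed by over 1.5-fold with an adjusted p below 0.05, against 7.35% of ORFs. By the adjusted p alone 6 genes differed (15.4%), against 22.3% of ORFs, and by the unadjusted p alone 12 did, against 37.5%. PAM18 had the widest difference, 0.51 higher in culture 2 (standard error 0.09, adjusted p = 0.0039 in limma). SAM35 was 0.40 higher in culture 2 (adjusted p = 0.0138 in limma), and TOM40 was 0.29 higher (adjusted p = 0.0427 in limma). TIM13, HSP10 and HSP60 differed the other way, with culture 2 minus culture 1 at −0.44, −0.31 and −0.26 (adjusted p = 0.0335, 0.0260 and 0.0490 in limma). This test compares these 2 cultures only, in which culture and isotope label cannot be told apart. Arrays of the cultures did not overlap for further members either, such as TOM70, TIM44, TIM21, MGE1, MDJ1, TIM18, TIM22 and MAS2. The share over all ORFs was not computed, so a lack of overlap is not read here as particular to these genes.

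**Figure D4:**
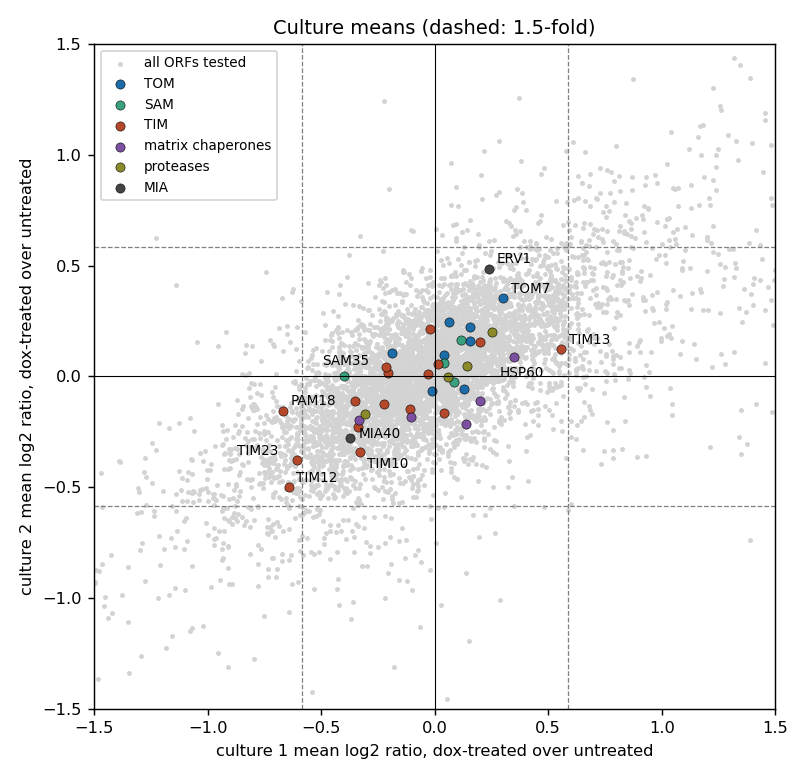
Mean log2 ratio of dox-treated over untreated cells in culture 1 (x axis) and culture 2 (y axis) for the 39 genes, colored by group, over all ORFs tested in gray, with dashed lines at 1.5-fold. TIM12, TIM23 and PAM18 pass the line in culture 1 only, TIM23 through array 3 of that culture. The axes end at 1.5, which leaves 137 ORFs outside.

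Outside these 39 genes, 32 further genes of the import, membrane insertion, folding and quality control pathways of mitochondria were examined. One of them, SOM1, was called, and it was higher, so that the share called was 1 of 32 (3.13%), against 10.5% of all ORFs and 5.74% in that direction. SOM1 encodes a small partner of the inner membrane peptidase formed by Imp1 and Imp2. Its log2 ratios were 1.08, 1.17 and 1.499 in culture 1 and 1.46, 0.58 and 1.04 in culture 2. The mean was 1.14 (standard error 0.12, adjusted p = 0.0223 in limma), and every array lay above both IMP1 and IMP2, whose own means were 0.23 and −0.24. The p threshold alone was passed by 4 of the 32 genes (12.5%), against 29.1% of all ORFs, namely by SOM1, MGR1, SSQ1 and ZIM17. MGR1, encoding an adaptor of the inner membrane protease Yme1, had culture means of 0.80 and 0.35, and SSQ1, encoding the mitochondrial Hsp70 of iron-sulfur cluster assembly, had 0.47 and 0.42. ZIM17, encoding the zinc finger protein that keeps mitochondrial Hsp70 soluble, had the lowest mean of the 32, −0.32, with log2 ratios of −0.46, −0.29 and −0.13 in culture 1 and −0.28, −0.39 and −0.34 in culture 2. ECM10, the paralog of SSC1, had culture means of −0.17 and −0.20, which differed from those of SSC1 by 0.07 and 0.01. Arrays of this kind may cross-hybridize between such close paralogs, and the probe sequences were not analysed here.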

How the data were processed

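Messenger RNA was measured on 6 arrays from 2 cultures, with 3 technical arrays each, and all arrays belonged to 1 group, dox-treated over untreated cells. Dyes were not swapped between treated and untreated samples, so a dye effect on a gene cannot be told apart from the treatment. The deposited values, 1 for each ORF on each array, had been normalized by the authors with LOWESS (GeneSpring GX) and were taken here as log2 ratios. This scale was deduced from a floor at −6.64, which recurred 10 times, and the direction from sample titles and from the fall of HSC82. Further centering is unknown, and background correction and spot filters are not given in the sources used here. The number of arrays limits the precision.

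Row names were matched to locus tags of the R64 reference table (5840 of 6377 rows), after the hyphen of names such as that of TOM5 was restored. All 39 genes matched. Technical arrays were averaged per culture, and the culture means of 6290 ORFs were tested against 0 in limma 3.58.1 (R 4.3.3; lmFit, eBayes). The threshold of 1.5-fold with p below 0.05 is that of the study's methods, which do not name the test. Intervals (95%) used the moderated standard error. Cultures were compared over the 6241 ORFs with at least 2 values in each. Both tests were checked on simulated data with planted changes of 2-fold. That check does not cover changes near 1.5-fold, and no result here rests on it. All tests were two-sided.

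Every member is accounted for. Values on each array were given for members past 1.5-fold in either culture, differing between cultures, or among the 3 highest and 3 lowest means, for HSC82, and for the called, highest and lowest of the other pathway genes. TOM7, TIM10, MIA40 and the pairs of partner genes were described further after their values were seen. The members and lists were chosen with earlier results of these data known. The alternatives were adjusted p-values, a 2-fold threshold or none, arrays as replicates with and without a culture block, centering, scale and quantile normalization, complete ORFs only, group means, and each culture or array left out. SILAC data were not analysed here.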

Additional observations from a re-analysis of the deposited data

Results flagged for a closer look

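A single array lay far from the other 5 in 3 of the 39 genes, by Dixon's test at its 95% level. For independent values, chance alone gives this for about 1 gene in 20. The arrays were technical arrays of 2 cultures, so that rate need not apply here. The share over all ORFs was not computed. TIM23 had its lowest log2 ratio, −0.92, on array 3 of culture 1, where the next lowest was −0.48. TOM22 had its highest, 0.34, on array 3 of culture 2, next to 0.18. SSC1 had its lowest, −0.33, on that same array, next to −0.16.

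The response to dox differed between the cultures for 6 of the 39 genes (15.4%) by the adjusted p alone in limma, against 22.3% of all ORFs. Culture 2 minus culture 1 was 0.51 for PAM18, 0.40 for SAM35, 0.29 for TOM40, −0.26 for HSP60, −0.31 for HSP10 and −0.44 for TIM13. No difference reached 1.5-fold, and culture and isotope label cannot be told apart here.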

How the results depend on the processing

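The count of 0 called members held under 8 of the alternatives that left out no array or culture, and became 7 with no fold threshold. Among those 8, adjusted p-values, the 2-fold threshold, both fits of the 6 arrays and complete ORFs only could give no other count. They left every member mean as it was, below 1.5-fold. With one culture or array left out it ranged from 0 to 3. Without culture 2, by the fold alone, TIM12, TIM23 and PAM18 were past 1.5-fold, TIM23 through array 3 of culture 1. Without that array or array 2 of culture 2 only TIM12 was called. The lowest adjusted p among members in limma was 0.0587, and it ranged from 0.0575 to 0.0903 with one array left out. It was 0.0397 after quantile normalization, 0.0453 after scale normalization, 0.0479 with complete ORFs only and 0.103 after median centering. With the culture as a random block it was 0.0026. With the 6 arrays as replicates it was 0.000216, in a fit that treats the technical arrays of a culture as independent. For the other pathway genes the count of 1 became 4 with no fold threshold and ranged from 1 to 3 with one culture or array left out (MDJ2 and MGR1 joined SOM1 without culture 2, and MGR1 did without array 3 of culture 1 or array 2 of culture 2). The adjusted p of SOM1 in limma became 0.0917 after median centering, 0.0502 without array 1 of culture 1 and 0.0535 without array 1 of culture 2. The SAM median over both cultures was 0.05, the mean over its genes 0.0051, and the range with one array left out 0.016 to 0.065. The TOM median stayed above and the TIM median below zero in both cultures under every alternative run for them. Members that differed between the cultures numbered 0, and 6 with no fold threshold. Over all ORFs, the 659 called became 337 with adjusted p-values, 181 at 2-fold, 1833 with no fold threshold and, by the fold alone, 1082 without culture 2. No paired analysis was possible because all arrays belong to 1 group. Signal over background was not analysed here.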
